A study of Rattus norvegicus with 10 samples.

Results

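A set of stress response genes, 6 of the 15584 genes in the count table, were followed in neonatal rat cardiomyocytes, which are cultured heart muscle cells of newborn rats. They were chosen by Ensembl rat identifier, by a rule that sets no threshold on measured values but was written with earlier results of these data known: Hmox1 (ENSRNOG00000014117), Nqo1 (ENSRNOG00000012772), Hspa5 (ENSRNOG00000018294), Atf4 (ENSRNOG00000017801), Ddit3 (ENSRNOG00000006789) and Asns (ENSRNOG00000007546). The symbols come from that choice of identifiers, since the table itself holds no symbols. All 6 identifiers were in the table, and all 6 passed the filter on low counts. Cells of 1 group had received 1 µM N-palmitoylglycine, in which palmitic acid is joined to glycine through an amide bond, for 24 h. Cells of the other group had received the solvent DMSO for 24 h. Each group had 5 libraries, numbered 1 to 5. No genotype or strain is given, and nothing says whether the libraries came from separate cultures or animals. A p-value here therefore reflects no more than library-to-library spread, and that spread may be technical.

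Cells meet oxidative and electrophilic stress through NRF2, a transcription factor that the adaptor KEAP1 holds at low levels until the stress modifies KEAP1. Hmox1 and Nqo1 are classical NRF2 target genes. Misfolded protein in the endoplasmic reticulum is sensed by ATF6, IRE1 and PERK. ATF6 and IRE1 raise the synthesis of chaperones such as the Hspa5 product, BiP. PERK phosphorylates the initiation factor eIF2α, which lowers general protein synthesis but favours translation of ATF4. Amino acid shortage reaches ATF4 by another eIF2α kinase, GCN2, and this shared route is called the integrated stress response. ATF4 raises Asns and Ddit3. Palmitate in excess is widely used as an inducer of endoplasmic reticulum stress in cultured cells, so these genes bear on whether its glycine amide evoked such a response.

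None of the 6 genes passed the test between palmitoylglycine and DMSO over all 10 libraries, and neither did any other gene of the table. The unadjusted 95% intervals still allowed changes of up to 1.55-fold higher (Ddit3) and down to 0.71-fold (Nqo1). At an adjusted p under 0.05 in edgeR's quasi-likelihood test, 0 of the 6 passed, where 0% of the 15321 genes tested passed. At an unadjusted p under 0.05, 0 of the 6 passed against 10.3% of all genes tested, and DESeq2 called 0 of the 6 against 0.86% of all genes. The median log2 fold change was 0.04 over the 6 genes and 0.00 over all genes tested. Of the 6 estimates, 4 were above 0 and 2 below, those of Hspa5 and Atf4, and the sign of Atf4 turned with median-of-ratios scaling. The gene closest to the threshold was Hspa5, and its estimate was a decrease. Total counts ranged from 56580073 to 78946785 per library. An earlier analysis of these data split the libraries into subsets that each hold both treatments, numbers 1 to 3 of both groups against numbers 4 and 5 of both groups, so every gene is given within them as well. The labels name no batch that follows these subsets. Markers of other heart cell types were not analysed here, since their identifiers could not be paired with symbols. In such bulk samples, fewer cells of a type and less RNA per cell cannot be told apart.

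**Figure D1:**
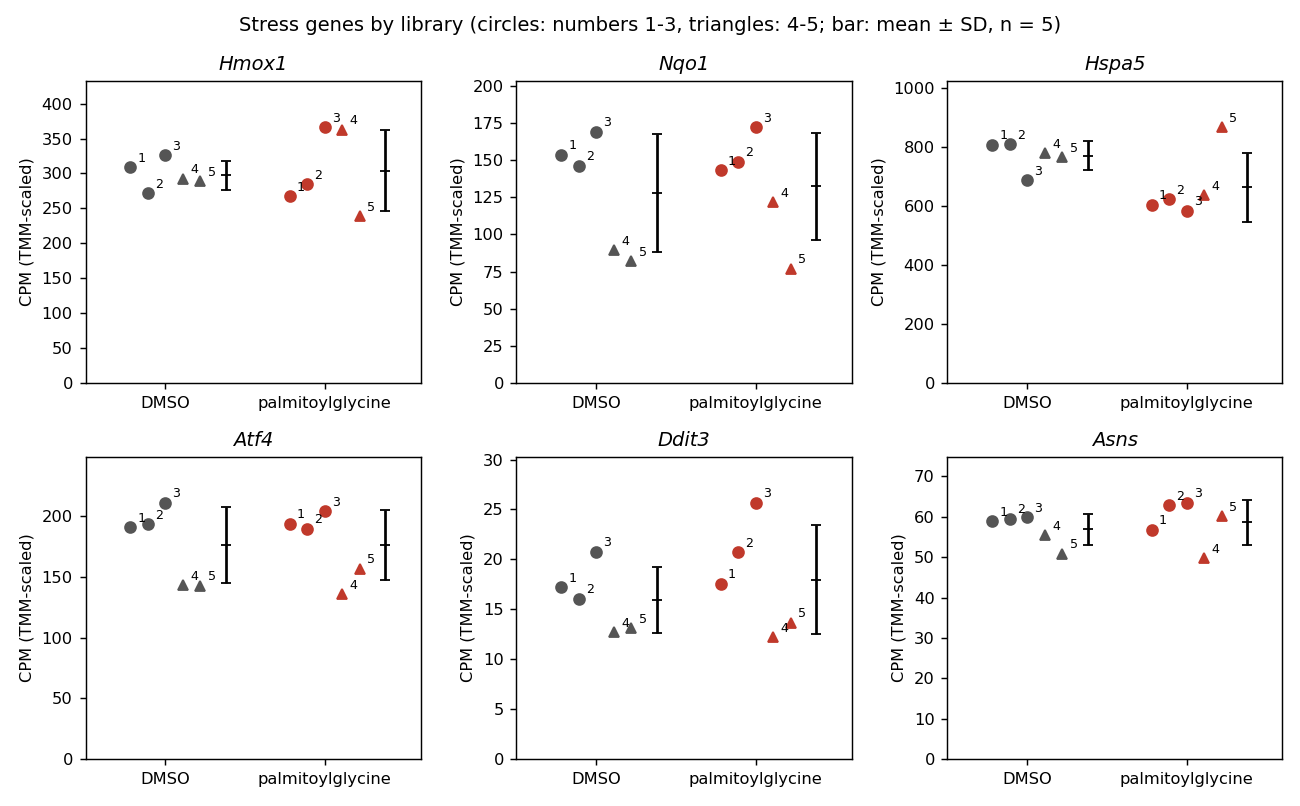
Level of each of the 6 genes by library, in CPM with TMM factors (y axis, from 0), for DMSO and palmitoylglycine (x axis). Each point is 1 library with its number, circles are numbers 1 to 3, triangles are numbers 4 and 5, and the bar beside each group is the mean ± SD (n = 5). Palmitoylglycine libraries 1 to 4 lie below all DMSO libraries for Hspa5, and numbers 4 and 5 lie below numbers 1 to 3 in both groups for Nqo1, Atf4 and Ddit3.

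Hspa5 encodes BiP, the Hsp70 chaperone of the endoplasmic reticulum, which binds unfolded chains and holds the stress sensors inactive. Its promoter is shown because it carries an element through which the unfolded protein response is known to act, and because Hspa5 had the largest decrease of the 6 genes. The sequence is the 250 bases before the RefSeq start of the gene in build GRCr8, on the plus strand at chr3:38452766-38453015, written 5′ to 3′. Of the 6 genes, 5 had a promoter in the RefSeq table used. The counts themselves were made on build mRatBN7.2.
Hspa5 promoter: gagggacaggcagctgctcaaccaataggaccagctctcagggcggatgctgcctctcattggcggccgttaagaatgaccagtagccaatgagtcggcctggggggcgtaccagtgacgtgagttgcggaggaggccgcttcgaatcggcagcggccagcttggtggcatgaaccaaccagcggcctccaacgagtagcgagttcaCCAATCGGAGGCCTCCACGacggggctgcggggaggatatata
The capitals mark the single exact match to the endoplasmic reticulum stress response element, CCAAT and CCACG with 9 bases between them. This match lies at positions −43 to −25 from the start, and near matches were not searched for. The element, bound by NF-Y and ATF6, was searched on both strands. It occurred in 22 of 33469 RefSeq promoter windows of this length, 0.0657%. A match is a description of the letters and not evidence of a bound site.

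Hspa5 was at 808.1, 809.4, 688.7, 779.4 and 766.4 CPM (counts relative to the library total, with TMM factors that offset differences in library composition) in DMSO libraries 1 to 5. In palmitoylglycine libraries 1 to 5 it was at 604.6, 623.3, 584.3, 638.1 and 867.8 CPM. Palmitoylglycine libraries 1 to 4 thus lay below every DMSO library, whereas palmitoylglycine library 5 lay above every one. A pattern with at least 4 of 5 palmitoylglycine libraries below the DMSO range was found in 5% of all genes tested. Group means were 663.6 CPM ± 115.9 (SD, n = 5) for palmitoylglycine against 770.4 CPM ± 49.3 (SD, n = 5) for DMSO. This is a log2 fold change of −0.22 (SE 0.11), and its unadjusted 95% interval ran from 0.73-fold to 1.02-fold. This did not pass the test (edgeR p = 0.0735, adjusted p = 0.527, two-sided exact permutation p = 0.0794 with the smallest possible p at 0.00794). Without palmitoylglycine library 5 the log2 fold change was −0.33 with an edgeR adjusted p of 0.164.

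Within libraries 1 to 3, a subset found in these same data, Hspa5 was lower with palmitoylglycine. Its mean was 604.1 CPM against 768.7 CPM with DMSO and the groups did not overlap. An absence of overlap in these libraries was found for 1 of the 6 genes and for 31.6% of all genes tested. On the log2 scale the change was −0.35 (SE 0.07) with an edgeR adjusted p of 0.0486, just inside the threshold. In this subset edgeR called 1 of the 6 genes against 4.55% of all genes, and DESeq2 called 1 of the 6, again Hspa5, against 13.1% (log2 fold change −0.35, adjusted p = 0.00115). The edgeR call was lost without any one of 5 of the 6 libraries, at adjusted p-values of 0.181 and 0.137 when DMSO libraries 1 and 2 were dropped, and of 0.123, 0.0927 and 0.148 when palmitoylglycine libraries 1, 2 and 3 were. Without DMSO library 3 the adjusted p was 0.0186.

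In libraries 4 and 5 the Hspa5 means were close, at 752.9 CPM with palmitoylglycine and 772.9 CPM with DMSO, but the palmitoylglycine mean stood for values on either side of both DMSO libraries. The estimate there was −0.04 on the log2 scale (SE 0.15), and edgeR called 0 of the 6 genes in these 4 libraries against 0.0325% of all genes. The responses of the subsets were compared directly as an interaction. For Hspa5 the change in libraries 4 and 5 was 0.31 higher on the log2 scale than in libraries 1 to 3 (SE 0.17), and this did not pass (edgeR adjusted p = 0.549). The interaction was called for 0 of the 6 genes and for 0.0587% of all genes, and at an unadjusted p under 0.05 for 0 of the 6 and 10.7% of all genes. With a term for the subsets, Hspa5 was the 1 gene of the 6 with an unadjusted p under 0.05, against 19.1% of all genes. Its log2 fold change was then −0.22 with an edgeR adjusted p of 0.228.

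**Figure D2:**
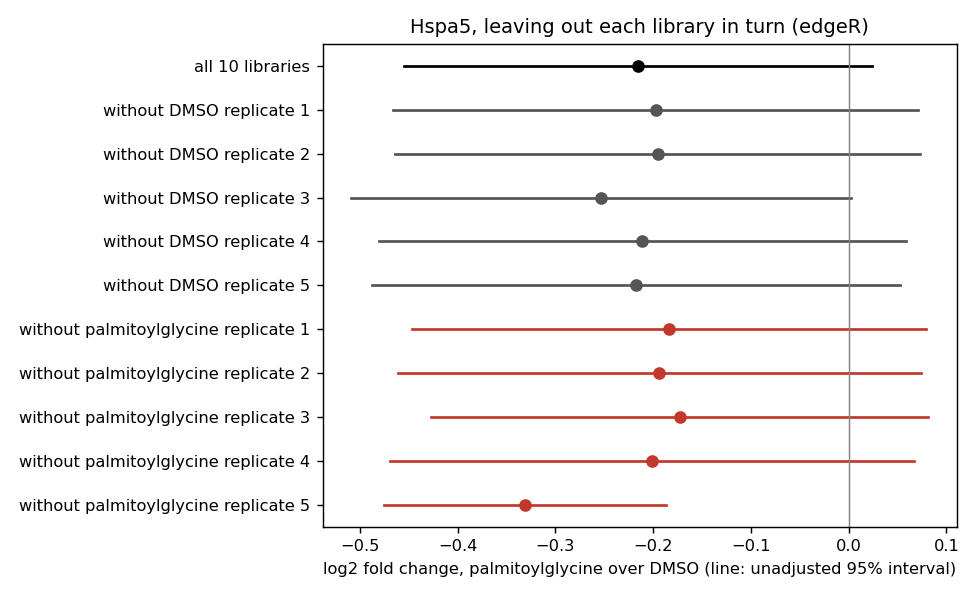
Log2 fold change of Hspa5, palmitoylglycine over DMSO (x axis), with all 10 libraries and with each library left out in turn (y axis), from edgeR with the group as the only term. Points are estimates and lines are unadjusted 95% intervals. The estimate moves from −0.22 to −0.33 without palmitoylglycine library 5 and stays between −0.25 and −0.17 without any other library.

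Ddit3 encodes CHOP, a C/EBP family transcription factor that is induced by ATF4 and linked to cell death in prolonged endoplasmic reticulum stress. It was the least counted of the 6 genes, with 774 to 1855 counts per library, where counting error alone is 3.59% at the lowest count. The level was 17.2, 16.1, 20.8, 12.7 and 13.1 CPM in DMSO libraries 1 to 5. It was 17.5, 20.7, 25.7, 12.2 and 13.6 CPM in palmitoylglycine libraries 1 to 5. The groups overlapped, with 1 palmitoylglycine library above the DMSO range and 1 below it. Averages were 16.0 CPM ± 3.31 (SD, n = 5) in the DMSO group and 18.0 CPM ± 5.46 (SD, n = 5) in the palmitoylglycine group. The log2 estimate, 0.17, had a standard error of 0.21 and an interval from 0.82-fold to 1.55-fold (edgeR adjusted p = 0.842, two-sided exact permutation p = 0.556). Without palmitoylglycine library 3, which had the highest level, it was 0.01, and without DMSO library 3 it was 0.28. In libraries 1 to 3 the estimate was 0.25 with a standard error of 0.16 (edgeR adjusted p = 0.392), and in libraries 4 and 5 it was 0.00 with a standard error of 0.12. Within libraries 1 to 3 the estimates for the chaperone gene Hspa5 and for Ddit3 thus had opposite signs, and the one for Ddit3 did not pass the test.

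Atf4 encodes the transcription factor of the integrated stress response. Its control is largely translational, so the mRNA reads only part of its activity. Atf4 was at 190.7, 193.2, 211.0, 143.0 and 142.5 CPM in DMSO libraries 1 to 5. It was at 193.7, 189.5, 204.2, 135.5 and 156.6 CPM in palmitoylglycine libraries 1 to 5. The treatment groups overlapped throughout, while libraries 4 and 5 lay below libraries 1 to 3 in each group. In the palmitoylglycine group the mean was 175.9 CPM ± 28.7 (SD, n = 5), and in the DMSO group 176.1 CPM ± 31.4 (SD, n = 5). The log2 difference was 0.00 (SE 0.15) with an interval from 0.80-fold to 1.25-fold (edgeR adjusted p = 0.998, two-sided exact permutation p = 0.984). With the subset term the standard error fell to 0.05, and the log2 interval ran from −0.11 to 0.12.

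Asns encodes asparagine synthetase, an ATF4 target that makes asparagine from aspartate and glutamine. It was at 58.9, 59.5, 59.8, 55.4 and 50.8 CPM in DMSO libraries 1 to 5. It was at 56.8, 62.9, 63.5, 49.7 and 60.2 CPM in palmitoylglycine libraries 1 to 5. In total 3 palmitoylglycine libraries lay above the DMSO range and 1 below it. The DMSO mean was 56.9 CPM ± 3.83 (SD, n = 5) and the palmitoylglycine mean 58.6 CPM ± 5.64 (SD, n = 5). On the log2 scale the difference was 0.04, with a standard error of 0.08 (edgeR adjusted p = 0.902, two-sided exact permutation p = 0.587). Its interval, from 0.91-fold to 1.16-fold, was the narrowest of the 6 genes.

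Hmox1 encodes heme oxygenase 1, which degrades heme to biliverdin, carbon monoxide and iron. It was at 309.2, 271.5, 325.9, 292.3 and 288.7 CPM in DMSO libraries 1 to 5. It was at 267.7, 284.4, 366.3, 362.4 and 238.7 CPM in palmitoylglycine libraries 1 to 5. With palmitoylglycine the libraries were more widely spread, 2 above the DMSO range and 2 below it. Group means were 303.9 CPM ± 57.6 (SD, n = 5) for palmitoylglycine against 297.5 CPM ± 20.8 (SD, n = 5) for DMSO, and the difference in spread was not tested. The fitted log2 fold change, 0.03, had a standard error of 0.12 and an interval from 0.85-fold to 1.23-fold (edgeR adjusted p = 0.955, two-sided exact permutation p = 0.921). Its sign turned without palmitoylglycine library 3 (−0.05) or 4 (−0.04).

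Nqo1 encodes a cytosolic quinone reductase that converts quinones to hydroquinones. It was at 153.7, 146.3, 169.1, 89.5 and 82.1 CPM in DMSO libraries 1 to 5. It was at 143.3, 148.9, 172.1, 121.5 and 76.9 CPM in palmitoylglycine libraries 1 to 5. The treatment groups overlapped in both subsets. Averages were 128.1 CPM ± 39.6 (SD, n = 5) in the DMSO group and 132.5 CPM ± 36.0 (SD, n = 5) in the palmitoylglycine group. Between the groups the log2 difference came to 0.05 with a standard error of 0.25 and an interval from 0.71-fold to 1.51-fold (edgeR adjusted p = 0.968, two-sided exact permutation p = 0.905). The standard error was 0.12 with the subset term, where the log2 fold change was 0.07. In libraries 4 and 5 it was 0.21 with a standard error of 0.22, and in libraries 1 to 3 it was −0.01 with a standard error of 0.09. Its sign also turned without palmitoylglycine library 3 (−0.06) or DMSO library 4 (−0.06) or 5 (−0.08).

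**Figure D3:**
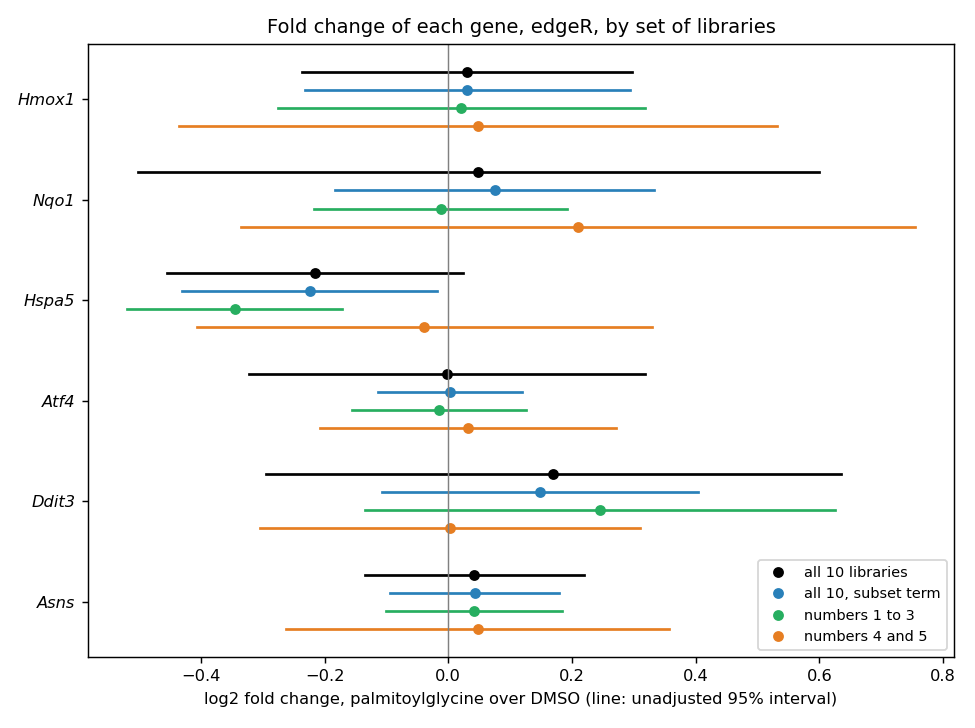
Log2 fold change of each gene, palmitoylglycine over DMSO (x axis), from edgeR for all 10 libraries, for all 10 with a term for the subsets, for numbers 1 to 3 and for numbers 4 and 5. Points are estimates and lines are unadjusted 95% intervals. With all 10 libraries and the group as the only term every interval crosses 0, as it does for numbers 4 and 5. With the subset term, and for numbers 1 to 3, only that of Hspa5 does not.

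Nqo1, Atf4 and Ddit3 were lower in libraries 4 and 5 than in libraries 1 to 3 of both groups. These levels are a description with no test, since the subsets were found in these same libraries. Nqo1 averaged 155.6 CPM ± 12.2 (SD, n = 6) in libraries 1 to 3 and 92.5 CPM ± 20.02 (SD, n = 4) in libraries 4 and 5, a ratio of 0.59. Atf4 averaged 197.0 CPM ± 8.56 (SD, n = 6) and 144.4 CPM ± 8.81 (SD, n = 4), a ratio of 0.73. Ddit3 averaged 19.7 CPM ± 3.52 (SD, n = 6) and 12.9 CPM ± 0.611 (SD, n = 4), a ratio of 0.66. In each of these 3 genes all 4 libraries numbered 4 or 5 lay below all 6 others. Subsets did not overlap for 3 of the 6 genes and for 21.3% of all genes tested, in either direction. The mean log2 difference between subsets (4 and 5 minus 1 to 3) was −0.77 for Nqo1, −0.59 for Ddit3 and −0.45 for Atf4. Over all genes tested its median was 0.01 and its 5th percentile −0.59. Asns was slightly lower in libraries 4 and 5, with means of 54.0 CPM ± 4.78 (SD, n = 4) there and 60.2 CPM ± 2.53 (SD, n = 6) in libraries 1 to 3, which overlapped. Hmox1 (ratio 0.97) and Hspa5 (ratio 1.11) overlapped between the subsets.

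Some pairs of the genes varied together from library to library and others did not. Likeness was measured as Pearson's r of log2 CPM with every other gene of at least 1 CPM, 13809 in number, as a description over libraries that share the subsets. Hmox1 and Nqo1 were the closest pair once the subsets were set aside. Over the 6 libraries numbered 1 to 3, r was 0.96 and Spearman's rho was 1. Without the 2 libraries farthest from the median of Hmox1, r was 0.92. Nqo1 ranked 6 of 13809 genes in likeness to Hmox1, and Hmox1 ranked 11 in likeness to Nqo1. In libraries 4 and 5 the order was again the same for both genes, from palmitoylglycine library 4 down through DMSO libraries 4 and 5 to palmitoylglycine library 5. Over all 10 libraries with each subset centred on its mean, a measure added after the data were seen, r was 0.91.

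Atf4 and its targets Ddit3 and Asns were less alike. With each subset centred, r over the 10 libraries was 0.64 for Atf4 and Asns, 0.53 for Atf4 and Ddit3, and 0.53 for Ddit3 and Asns. Asns ranked 298 of 13809 genes in likeness to Atf4, and Ddit3 ranked 821. Over libraries 1 to 3 alone r was 0.19 for Atf4 and Asns, 0.58 for Atf4 and Ddit3, and 0.77 for Ddit3 and Asns. The 2 values for Atf4 depend on which of the 6 libraries are kept. Without the 2 libraries farthest from the Atf4 median, r turned to −0.81 for Asns and −0.75 for Ddit3. Without the 2 farthest from the median of the other gene, r with Atf4 was 0.45 for Asns and 0.48 for Ddit3. For Ddit3 and Asns it was 0.76 without the 2 farthest in Ddit3, but 0.24 without the 2 farthest in Asns. Hspa5 was not close to any of the other 5 genes. Its centred r with them ranged from −0.57 with Nqo1 to 0.26 with Asns. Over libraries 1 to 3 its r ranged from −0.72 with Ddit3 to −0.24 with Nqo1. The value with Ddit3 was −0.26 without the 2 libraries farthest in Hspa5, and −0.35 without the 2 farthest in Ddit3. Treatment was not removed from any r given here, and in libraries 1 to 3 Hspa5 did not overlap between treatments. Values over the 10 libraries without centring are not given, because the subsets lie apart in 3 of the 6 genes.

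**Figure D4:**
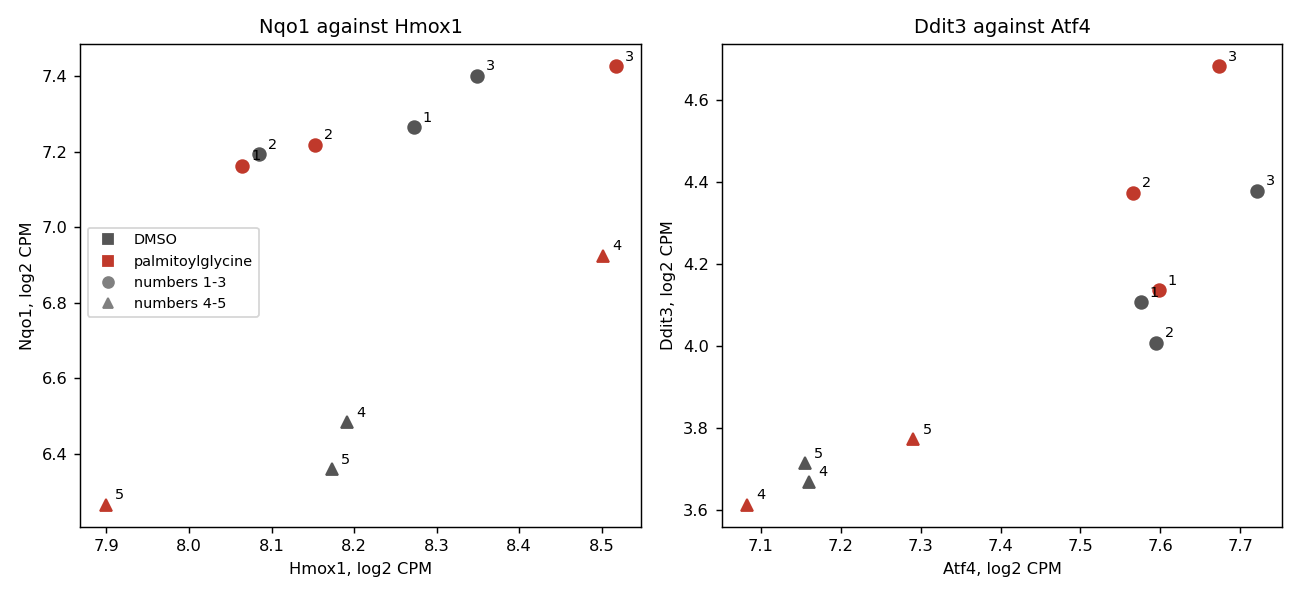
Log2 CPM of Nqo1 against Hmox1 (left) and of Ddit3 against Atf4 (right), 1 point per library with its number. Colour gives the treatment, circles are numbers 1 to 3 and triangles are numbers 4 and 5. Nqo1 rises with Hmox1 inside each subset, along 2 separate lines of points, while Ddit3 and Atf4 differ mainly between the subsets.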

How the data were processed

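Poly(A)-selected RNA was sequenced from neonatal rat cardiomyocytes, 5 libraries with DMSO and 5 with 1 µM palmitoylglycine, per the labels. The values deposited by the authors are unnormalized counts of reads for each gene, per the file headers. Trimmomatic trimming and build mRatBN7.2 are named in the submitters' processing notes. For the aligner, counter, annotation and strand setting, the sources used here give nothing. No strand-marking step is described in the labels' protocols, so overlapping or antisense genes may share reads. PCR was used without molecular identifiers.

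The whole table was fitted with edgeR 4.0.16 (R 4.3.3; TMM factors, filterByExpr, 15321 genes kept, quasi-likelihood test, group as the only term), with Benjamini-Hochberg adjustment over all genes tested and a threshold of 0.05. Standard errors came from the F statistic. Log2 CPM used a prior count of 2. Alternatives used DESeq2 1.42.0, limma 3.58.1 (limma-voom with quality weights for libraries) and other scalings. They also used no filter, a replicate block, a subset term, each subset and each library left out. The code was tested on simulated data. Libraries of a group differed by more than counting noise (mean chi-square per gene 31.1 to 254 over 20 pairs), so none was the same library deposited again. Separate preparations of 1 RNA would differ too and cannot be told apart from separate cultures.

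The 6 genes are those named by the choice of identifiers, each given in full. They, the lists and the subsets were chosen with earlier results of these data known. None of the 15584 identifiers (0) matched the RefSeq table, so the pathway and cell type lists, gene lengths and levels compared between genes were not analysed here. Same-numbered libraries deviated together from their group means, with correlations of 0.124, 0.125, 0.205, 0.362 and 0.30 for numbers 1 to 5. These correlations followed the subsets, and libraries of different numbers were not compared in this way. The values therefore cannot show pairing by number. The replicate block assumes such pairing, which the labels do not state. Promoters came from RefSeq (GRCr8), matched by symbol.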

Additional observations from a re-analysis of the deposited data

Results flagged for a closer look

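Hspa5 in palmitoylglycine library 5 was at 867.8 CPM, far above the 584.3 to 638.1 CPM of the other 4 palmitoylglycine libraries. The gap to the nearest library was 0.81 of the range of the group, above the 0.71 that 5 values reach in about 1 of 20 groups by chance. Among 12 sets of 5 values (6 genes in 2 groups) this was the only 1 so marked, and at that rate 1 mark is not unusual. In the same library Hmox1 and Nqo1 were the lowest of all 10, at 238.7 and 76.9 CPM. Nqo1 was nearly as low in DMSO library 5, at 82.1 CPM. Atf4, Ddit3 and Asns, at 156.6, 13.6 and 60.2 CPM, lay inside the range of the other libraries. Whether anything beyond chance set this library apart was not tested.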

How the results depend on the processing

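The count of 0 of 6 genes past an adjusted p of 0.05 was also found in DESeq2 and limma-voom, and in edgeR with no filter, median-of-ratios factors, library totals as the only scaling, the replicate block, the subset term with either tool and libraries 4 and 5 alone. It was 1, Hspa5, in libraries 1 to 3 alone with edgeR and 1 with DESeq2, the latter added after seeing the data. Leaving out each library gave 0 to 1, also with the subset term or in libraries 1 to 3, both added after seeing the data. The 1 was Hspa5 in libraries 1 to 3 without DMSO library 3. Over all genes, the main edgeR fit called 0% and DESeq2 0.86%, so 0 of 6 is near that share. For the other fits to all 10 libraries, and those leaving a library out, the share past the adjusted threshold is not given. These counts therefore do not set the 6 genes apart from the rest of the table. Hspa5 was negative in all 37 alternatives, from −0.42 to −0.04, and Ddit3 positive in all 37, from 0.00 to 0.37. These alternatives reuse the same 10 libraries, so a constant sign is not separate evidence. The share of all genes that keep their sign is not given, and the main intervals of both genes include no change. With the replicate block the Hspa5 log2 fold change was −0.23 with an edgeR adjusted p of 0.298, and the block changed no call. In limma-voom with quality weights, which weight each library, it was −0.31 with an adjusted p of 0.0943. That fit changes the weights of the libraries as well as the tool. With the subset term, the edgeR adjusted p for Hspa5 was 0.0572 without palmitoylglycine library 5. It was 0.217 to 0.436 without any other library. Signs turned where estimates were near 0. Atf4 became 4.9e-05 with median-of-ratios factors, 7.8e-05 in DESeq2, 0.0035 in DESeq2 with the subset term, 0.039 in limma-voom, 0.0011 under the replicate block, 0.0021 with the subset term and 0.032 in libraries 4 and 5. Nqo1 became −0.012 in libraries 1 to 3 and −0.016 there in DESeq2. Leaving out libraries gave −0.12 to 0.11 for Hmox1, −0.091 to 0.19 for Nqo1, −0.069 to 0.079 for Atf4 and −0.0024 to 0.096 for Asns. The cause was not tested. Counting error was at most 3.59%, reached by Ddit3, which is smaller than the spread between libraries.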

Other observations

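The spread between libraries differed among the 6 genes. The SD of log2 CPM within treatment groups was 0.47 for Nqo1, 0.37 for Ddit3, 0.26 for Atf4, 0.21 for Hmox1, 0.18 for Hspa5 and 0.12 for Asns, against a median of 0.22 over all genes tested. Within treatment and subset it was 0.08 for Atf4, at the 18.2 percentile of all genes, and 0.24 for Hmox1, at the 68.6 percentile. Against genes of all levels, Atf4 was thus among the steadier once the subsets were set aside, while Hmox1 was not. A comparison with genes of like level was not made.

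The 250 bases before the RefSeq start (GRCr8) of Hspa5, Nqo1, Atf4, Ddit3 and Asns were also searched on both strands for the core of the antioxidant response element, TGACNNNGC, bound by NRF2, and the core of the C/EBP-ATF response element, TGATGNAA. These letters were in none of the 5 windows. They were in 10.1% and 3.4% of all 33469 windows of this length. The search says only that the letters are not in these windows.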
